A study of Drosophila melanogaster with 14 samples.

Results

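The peptidoglycan recognition protein (PGRP) genes of *Drosophila melanogaster* were followed across 14 embryonic mRNA-Seq libraries. The genes were taken by name, as the rows for PGRP-SA (CG11709), PGRP-SD (CG7496), PGRP-SB1 (CG9681), PGRP-SC1a (CG14746), PGRP-SC2 (CG14745), PGRP-LA (CG32042), PGRP-LB (CG14704), PGRP-LC (CG4432), PGRP-LE (CG8995) and PGRP-LF (CG4437), and they are 10 of the 13781 genes in the table. The rule used names and no measured value. Of the 3 other family genes in the table, PGRP-SB2 and PGRP-SC1b had 24 and 27 reads in all libraries together, and PGRP-LD shared its reads in every library with another listed gene, so its reads cannot be assigned.

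PGRPs bind peptidoglycan, the polymer of bacterial cell walls, and either report it to the immune system or destroy it. In flies, PGRP-LC at the cell surface and PGRP-LE inside the cell or secreted are the receptors of the Imd pathway, which activates the NF-kappaB factor Relish and antimicrobial peptide genes, whereas secreted PGRP-SA acts upstream of the Toll pathway. Other family members are amidases that cut peptidoglycan into inactive fragments and thereby restrain the response, and PGRP-LB is the best known of these.

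The study sequenced whole embryos to follow a degeneration of the central nervous system seen at stage 16 in mutants lacking both *sall* genes, and its disappearance at stage 17. WT embryos were Oregon R. Ho embryos were homozygous for Df(2L)32FP-5, a deficiency that removes *salm* and *salr*, and were picked by the lack of GFP from a stock with a CyO-GFP balancer. He embryos were Df(2L)32FP-5/+, from females of that stock and white males, and were also picked as GFP-negative, so the genotypes differ in strain background as well as in *sall* dose. There were 2 WT, 2 He and 3 Ho libraries at each stage (WT16, He16, Ho16, WT17, He17, Ho17), each from 50 pooled embryos. Letters name the experiment within a genotype: a, b and c. For libraries lettered ab, the study says that technical replicates were grouped and names WT16ab as a case. How a and b relate to pools of embryos in the ab libraries is not stated. The labels do not say whether a letter shared between genotypes names a shared batch. The stage was taken from the titles and the design text, because the stage field gives stage 16 for all 14 libraries.

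The libraries held between 4754638 (Ho16a) and 23200923 (WT17c) reads on genes. *salm* had 768 to 2651 reads in the 8 WT and He libraries and 0 to 96 in the 6 Ho libraries, without overlap. The Ho16 libraries varied most, with an SD around their group mean of 0.65 to 1.25 over all tested genes on the deposited log2 scale, against 0.37 to 0.67 for the other 11. Ho16c had no read on 4514 genes, against 1376 to 2803 elsewhere. The 6 libraries lettered c and the Ho17 libraries had only 46 to 94 genes at exactly 1 read, against 512 to 645 in the other 6, so very low counts are not comparable between these libraries.

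Values are given as normalized reads, which are whole reads recovered from the deposited table and divided by a library size factor, and differences as deposited values on a log2-like scale that compresses low counts. A gene was called when the limma test, adjusted over all 11584 genes tested, gave an adjusted p under 0.001, the threshold of the study; 0.05 is named where used. Of the 10 members, 9 could be tested and PGRP-SC1a, with 21 reads in all, could not. PGRP-SA and PGRP-SC2 entered the test only through the few libraries in which they were high. In whole embryos, fewer cells of a type and less RNA per cell cannot be told apart.

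Per kb of exon, 6 of the 10 genes had most of the signal. Averaged over the 14 libraries, the level per kb was 168 normalized reads for PGRP-LE, 165 for PGRP-LA, 164 for PGRP-LB, 159 for PGRP-LC, 136 for PGRP-SD and 93.4 for PGRP-LF. The secreted PGRP-SB1, PGRP-SC2, PGRP-SA and PGRP-SC1a followed at 19.7, 14.2, 4.92 and 2.19. The order differed between stages. In WT16 it ran from PGRP-LA (207 ± 3.32 per kb, SD, n = 2) and PGRP-LC (180 ± 11.8) through PGRP-LE (127 ± 43.4), PGRP-SD (77.6 ± 44.3) and PGRP-LF (70.3 ± 1.41) to PGRP-LB (28.1 ± 1.51). PGRP-SD overlapped PGRP-LF and PGRP-LE in this order, while PGRP-LB lay below all 5 others in both libraries. In WT17, PGRP-LB came first with 226 ± 18.0 per kb, ahead of PGRP-LE (196 ± 73.2), PGRP-LC (166 ± 2.15), PGRP-LF (147 ± 45.6), PGRP-LA (114 ± 42.1) and PGRP-SD (15.3 ± 6.70). Only PGRP-SD stood clear of its neighbours there: the WT17 ranges of PGRP-LB and PGRP-LE overlapped, as did those of PGRP-LE, PGRP-LC, PGRP-LF and PGRP-LA in turn.

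**Figure D1:**
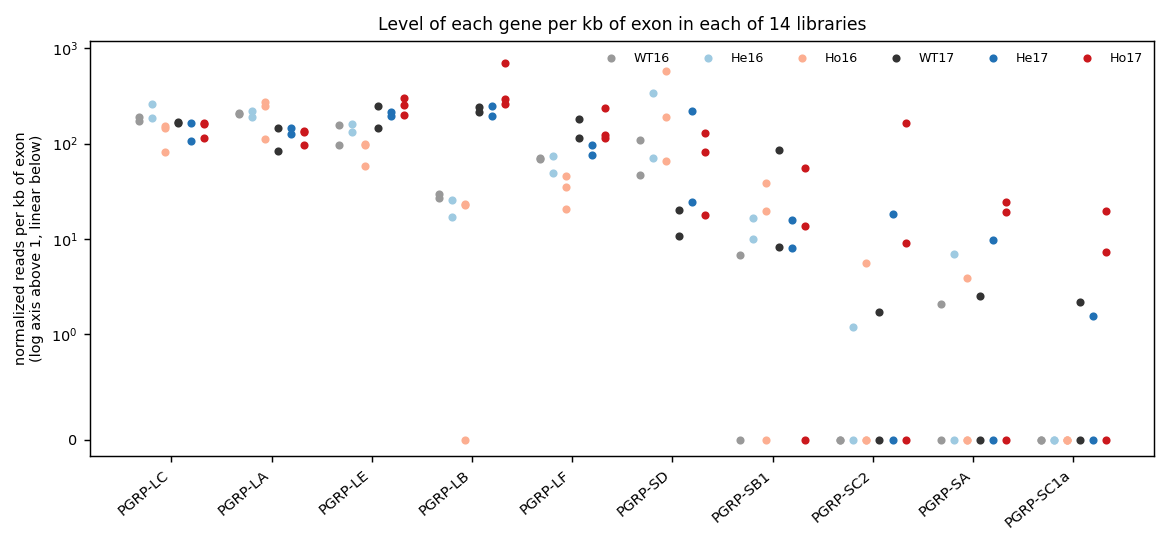
Normalized reads per kb of exon (y axis, logarithmic above 1 and linear below) for each of the 10 genes (x axis), 1 point per library, coloured by group. PGRP-LB moves from about 17 to 29 per kb in WT16 and He16 to 192 to 250 in WT17 and He17, whereas PGRP-SC2, PGRP-SA and PGRP-SC1a lie at 0 in 7 or more libraries.

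The first comparison asked which members changed from stage 16 to stage 17 in each genotype. PGRP-LB, the amidase that restrains Imd signalling, was higher at stage 17 in all 3 genotypes, and PGRP-LE and PGRP-LF were higher in each of the 7 pairs of libraries with the same genotype and letter. PGRP-LA was lower in 6 of those 7 pairs and PGRP-SD in 7 of 7. PGRP-LC, the main Imd receptor, went up in 3 pairs and down in 4. These pair counts only describe the values. The letters were not taken to pair the samples in the tests, and no share of all tested genes is given for such counts. The PGRP-SD values of the stages overlapped in He and Ho.

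PGRP-LB had 48.0 and 51.8 normalized reads in WT16ab and WT16c and 424 and 379 in WT17ab and WT17c. The He libraries gave 44.9 and 29.8 at stage 16 and 444 and 342 at stage 17. In Ho it had 39.7, 41.1 and 0 in Ho16a, Ho16b and Ho16c and 516, 1241 and 464 in Ho17a, Ho17b and Ho17c. All 7 stage 17 libraries were thus above all 7 stage 16 libraries, the highest being Ho17b with 1458 reads and the lowest Ho16c, where 0 of 15273840 reads allows up to 2.76 normalized reads (counting error only). PGRP-LF separated in the same way. Within 1 genotype, 33.5% (WT), 33.8% (He) and 22.0% (Ho) of all tested genes were higher at stage 17 without overlap. The share over the pooled genotypes was not computed, so this separation is not read as particular to PGRP-LB and PGRP-LF. In Ho the PGRP-LB mean rose 27.5-fold, with a log2 difference of 5.42 ± 0.85 (SE) and an adjusted p of 4.4e-04 (limma). In WT the ratio of means was 8.05 and the log2 difference 3.01 ± 1.04 (95% interval 0.76 to 5.25, adjusted p = 0.080), and in He the ratio was 10.5 and the log2 difference 3.29 ± 1.04 (1.05 to 5.53, adjusted p = 0.061), neither of which was called.

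PGRP-LB in Ho was the single call among the 9 tested members over the 3 stage comparisons, against a background of 6.91% of all tested genes called higher from Ho16 to Ho17. In WT and He, 0 members were called, with 1 member in each (PGRP-LB) at an unadjusted p under 0.05. Of all tested genes, 3.37% in WT and 2.99% in He were called in either direction, and at an unadjusted p under 0.05 17.4% were higher and 6.98% lower in WT and 15.5% and 6.09% in He. Leaving out Ho16c, in which PGRP-LB had no read, lowered the Ho difference to 4.17 (adjusted p = 2.4e-05) and brought the He difference to an adjusted p of 6.3e-04. The Ho call was lost, at adjusted p from 0.0010 to 0.0034, without any 1 of the 7 stage 17 libraries (WT17ab, WT17c, He17ab, He17c, Ho17a, Ho17b or Ho17c), and at 0.020 when only the Ho libraries were fitted.

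Averaging the stage change over the 3 genotypes in the same fit, a contrast added after the data had been seen, gave PGRP-LB a log2 difference of 3.90 ± 0.56 (adjusted p = 1.2e-04). It was called with any 1 library left out, at adjusted p between 6.0e-07 and 7.9e-04, but not on log2 of normalized reads plus 1 or 0.1 (adjusted p = 0.0011 and 0.013). It was the only member called, where 12.1% of tested genes were called higher. At an adjusted p under 0.05 this contrast had 3 members higher (PGRP-LB, PGRP-LE and PGRP-LF), where 23.0% of genes were higher, and 1 member lower (PGRP-LA), where 12.5% were lower.

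**Figure D2:**
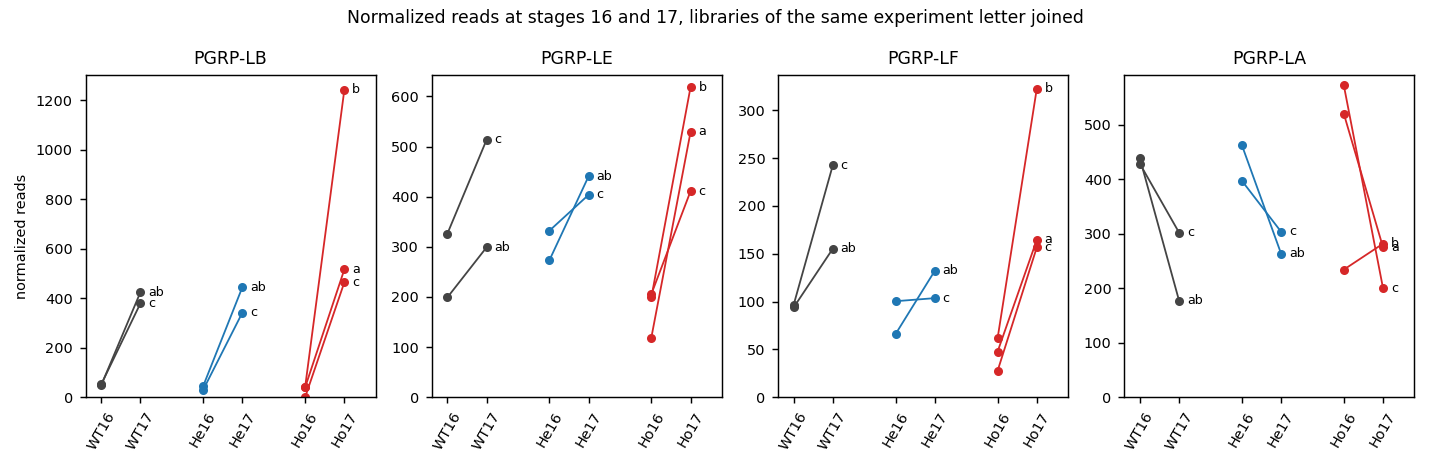
Normalized reads (y axis, linear from 0) of PGRP-LB, PGRP-LE, PGRP-LF and PGRP-LA at stages 16 and 17; lines join libraries of the same genotype and experiment letter, written at the stage 17 end. PGRP-LB, PGRP-LE and PGRP-LF go up in 7 of 7 lines, and PGRP-LA goes down in 6, Ho b being the exception.

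The receptor PGRP-LE had 199 and 326 normalized reads in WT16ab and WT16c and 299 and 514 in WT17ab and WT17c. In He it had 273 and 332 at stage 16 and 441 and 404 at stage 17. The Ho values were 119, 199 and 206 at stage 16 and 529, 619 and 411 at stage 17. Stages did not overlap in He and Ho but did in WT, where the 2 letters differed more than the stages. The mean ratio was 1.55 in WT, 1.40 in He and 2.98 in Ho. In Ho the log2 difference of 1.83 ± 0.39 had an adjusted p of 0.0042, and in WT and He the differences were 0.72 ± 0.48 (adjusted p = 0.43) and 0.58 ± 0.48 (adjusted p = 0.58). With the genotypes averaged, PGRP-LE was higher by 1.04 ± 0.26 (adjusted p = 0.0077).

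PGRP-LF, a membrane protein that resembles the receptors but lacks a signalling tail and inhibits the Imd pathway, had 93.9 and 96.6 normalized reads in WT16 and 155 and 243 in WT17, in the order ab and c. In He it had 66.1 and 100 at stage 16 and 132 and 104 at stage 17, a narrow separation. In Ho it had 47.6, 61.6 and 27.6 in Ho16a, Ho16b and Ho16c and 165, 323 and 157 in Ho17a, Ho17b and Ho17c. The stages did not overlap in any genotype. The log2 difference was 2.04 ± 0.44 in Ho (adjusted p = 0.0044), 1.03 ± 0.54 in WT (adjusted p = 0.29) and 0.48 ± 0.54 in He (adjusted p = 0.72), and 1.18 ± 0.30 with the genotypes averaged (adjusted p = 0.0073). At the 0.05 threshold Ho therefore had 3 members higher, where 18.6% of tested genes were.

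An unknown share of the reads on PGRP-LF may come from its neighbour. In the Release 6 annotation, 602 of its 1355 exon bases are shared with UGP, UDP-glucose pyrophosphorylase, on the opposite strand, and the kit did not mark strand. UGP was the more abundant gene per kb, at 334 normalized reads against 93.4 over the 14 libraries. Per kb, UGP had a mean of 252 in WT16 and 719 in WT17, against 70.3 and 147 for PGRP-LF. Its mean level was 760, 535 and 527 normalized reads in WT16, He16 and Ho16 and 2167, 1081 and 1144 in WT17, He17 and Ho17. UGP was higher at stage 17 in each genotype, like PGRP-LF, and its part in the PGRP-LF values was not tested.

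PGRP-LA, a membrane member that modulates Imd signalling in barrier epithelia, went the other way. It had 438 and 428 normalized reads in WT16ab and WT16c and 177 and 302 in WT17ab and WT17c, and 463 and 397 in He16 against 264 and 304 in He17. In Ho the values were 520, 234 and 572 at stage 16 and 275, 282 and 200 at stage 17, and these overlapped because Ho16b was low. The log2 difference was -1.05 ± 0.52 in WT (adjusted p = 0.25), -0.71 ± 0.52 in He (adjusted p = 0.51) and -0.86 ± 0.43 in Ho (adjusted p = 0.16). The 3 differences lay within 1 SE of each other, and their average, -0.87 ± 0.29, passed 0.05 (adjusted p = 0.030) but not 0.001.

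PGRP-LC had 704 and 642 normalized reads in WT16 and 625 and 614 in WT17, in the order ab and c. He16 had 693 and 974 and He17 609 and 398, while Ho16a, Ho16b and Ho16c had 544, 571 and 304 and Ho17a, Ho17b and Ho17c had 614, 593 and 432. PGRP-LC was thus lower at stage 17 without overlap in WT and He, by a mean ratio of 1.09 and 1.65, and overlapped in Ho. None of the differences passed a threshold: -0.15 ± 0.46 in WT (adjusted p = 0.91), -0.94 ± 0.46 in He (adjusted p = 0.27) and 0.30 ± 0.38 in Ho (adjusted p = 0.60). The Ho interval, -0.52 to 1.12, held changes in either direction, and the sign in Ho turned to -0.05 without Ho16c.

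PGRP-LA, PGRP-LC and PGRP-LF are consecutive coding genes in the Release 6 annotation. Their stage differences averaged over the genotypes were -0.87 ± 0.29, -0.26 ± 0.25 and 1.18 ± 0.30 on the deposited log2 scale. The limma intervals of PGRP-LA (-1.49 to -0.25) and PGRP-LC (-0.81 to 0.29) overlapped, and differences between genes were not tested. The exon overlap with UGP applies to the PGRP-LF average and to the PGRP-LF correlations that follow. Across the 14 libraries, which share stage and depth differences, the Pearson correlation of deposited values was 0.90 between PGRP-LB and PGRP-LF, 0.85 between PGRP-LE and PGRP-LF, 0.77 between PGRP-LB and PGRP-LE and -0.75 between PGRP-LA and PGRP-LB. PGRP-LA and PGRP-LC had a correlation of -0.03.

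**Figure D3:**
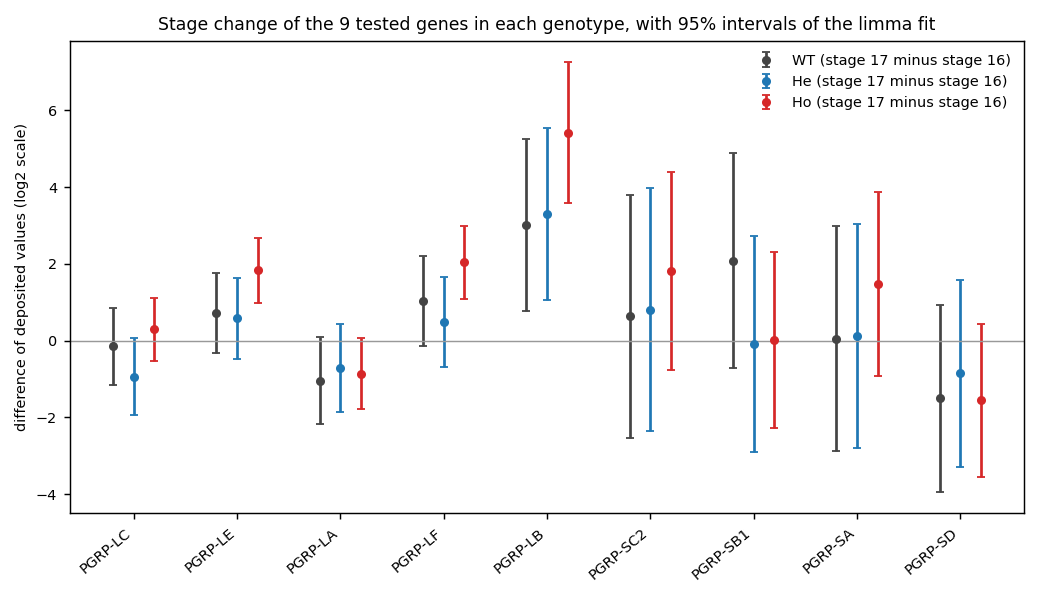
Stage 17 minus stage 16 difference of deposited values (y axis, log2 scale) for the 9 tested genes, with points for WT, He and Ho and bars for the 95% interval of the limma fit. The Ho intervals of PGRP-LB, PGRP-LE and PGRP-LF and the WT and He intervals of PGRP-LB lie above 0, while the intervals of the secreted PGRP-SC2, PGRP-SB1, PGRP-SA and PGRP-SD are more than 3 log2 units wide and include 0.

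PGRP-SD, a secreted protein linked to recognition upstream of Toll and Imd signalling, varied strongly between libraries of a group. WT16ab and WT16c had 33.4 and 78.6 normalized reads and WT17ab and WT17c 7.64 and 14.5. He16ab had 242 and He16c 50.5, against 159 and 17.6 in He17ab and He17c. Ho16a, Ho16b and Ho16c had 421, 136 and 47.8, and Ho17a, Ho17b and Ho17c had 59.0, 92.8 and 12.8. The c library was the lowest in 4 of the 6 groups, all of them He or Ho, and the highest in WT16 and WT17. Stages separated in WT only, with a log2 difference of -1.50 ± 1.12 (adjusted p = 0.49), against -0.85 ± 1.12 in He (adjusted p = 0.76) and -1.56 ± 0.92 in Ho (adjusted p = 0.24). In WT and He, where 33.5% and 33.8% of all tested genes were higher at stage 17 without overlap, 3 members were in each case (PGRP-LB, PGRP-LF and PGRP-SB1 in WT, PGRP-LB, PGRP-LF and PGRP-LE in He). Lower without overlap were 3 members in WT (PGRP-LA, PGRP-LC and PGRP-SD) and 2 in He (PGRP-LA and PGRP-LC), beside 28.4% and 29.9% of tested genes. In Ho, 3 members were higher without overlap beside 22.0% of genes, and 0 were lower beside 13.5%. With 9 members tested, the counts in WT and He were near this background.

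The remaining secreted members had few reads, and 3 of them had none in the libraries lettered c. PGRP-SA, which recognizes Gram-positive bacteria for the Toll pathway, had 77 reads in all: 2 in WT16ab, 8 in He16ab, 1 in Ho16a, 2 in WT17ab, 11 in He17ab, 30 in Ho17a and 23 in Ho17b. PGRP-SC2, an amidase of the gut, had 173 reads: 1 in He16ab, 2 in Ho16b, 1 in WT17ab, 15 in He17ab, 146 in Ho17a and 8 in Ho17b. PGRP-SC1a, a further gut amidase, had 1 read in WT17ab, 1 in He17ab, 14 in Ho17a and 5 in Ho17b, and none in any of the 7 stage 16 libraries.

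Not 1 of these 3 genes had a read in any of the 6 libraries lettered c, although those libraries held 15273840 to 23200923 reads, while 7, 6 and 4 of the 8 other libraries had reads of PGRP-SA, PGRP-SC2 and PGRP-SC1a. PGRP-SC1b, the near-identical copy of PGRP-SC1a to which its reads could equally have been assigned, also had reads in 6 of the 8 and in 0 of the c libraries. Of 780 genes with 101 to 300 reads in all, only 5 (0.641%) lacked reads in every c library, and PGRP-SC2 was 1 of them. Among the 1355 genes with 11 to 100 reads, the range of PGRP-SA and PGRP-SC1a, 13.2% did. A floor of 3 reads in the c libraries corresponds to 1.75 to 2.76 normalized reads, and Ho17a held 84.4% of all PGRP-SC2 reads. Genes at 1 read were scarce in the c libraries and also in Ho17a and Ho17b. The latter had 5 to 146 reads of each of these 3 genes, which does not show how very low counts fared there. The part of this scarcity in these values was not tested, and no stage or genotype difference was read from these 3 genes.

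PGRP-SB1, an amidase with bactericidal activity, had reads in 3 of the 6 c libraries and in all 8 others. WT17c held 80 of its 193 reads and Ho17a another 41, with 0 to 17 in each of the other 12. Its differences between stages ranged from -0.09 ± 1.29 in He to 2.08 ± 1.29 in WT (adjusted p = 0.99 and 0.38), the latter resting on WT17c.

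**Figure D4:**
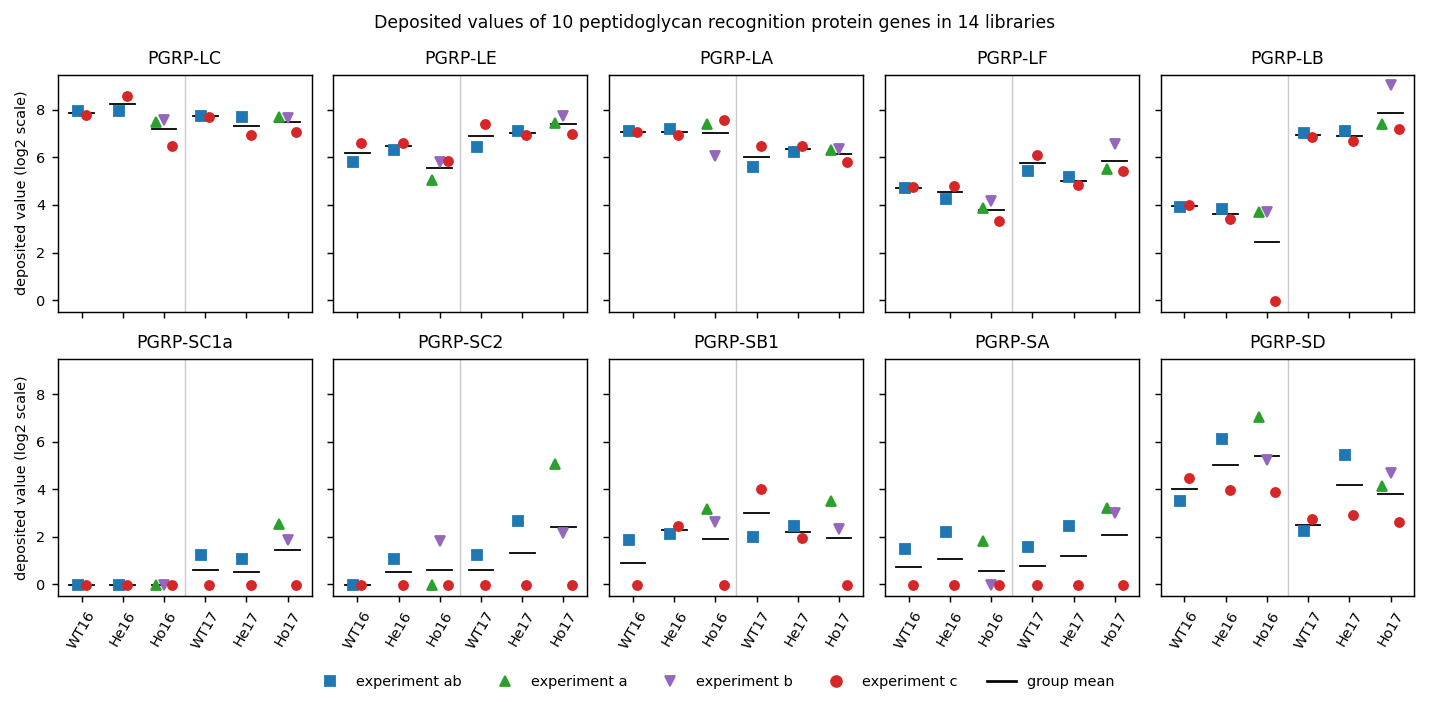
Deposited values (y axis, log2 scale, where 0 reads is -0.04) of each of the 10 genes in the 14 libraries, grouped by genotype and stage (x axis); symbols give the experiment letter and bars the group mean. All c libraries of PGRP-SC1a, PGRP-SC2 and PGRP-SA lie at the value of 0 reads, and Ho16c is the only library of PGRP-LB there.

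The second comparison asked whether members differed between genotypes at a given stage, and 0 were called in any of the 6 comparisons by the limma fit. Of all tested genes, 0.00863% were called between WT16 and Ho16, between WT17 and Ho17 and between WT16 and He16, and 0% in the 3 others. At an unadjusted p under 0.05 the 6 comparisons had 1 member in all, PGRP-LC, lower in Ho16 than in He16. In that comparison 3.82% of all tested genes were lower and 2.64% higher at this threshold. Over the 6 comparisons, 0.60% to 4.07% were lower and 0.63% to 4.08% higher. The deleted *salm* and *salr* were not called either in any comparison of Ho with WT or He. Between WT16 and Ho16 they differed by -6.45 and -6.08 (limma, adjusted p = 0.051 and 0.048). The study, which tested counts with DESeq, reported far more genes between Ho and WT. At these group sizes the intervals are wide and the comparisons share libraries, so 0 calls do not show that members were unchanged.

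At stage 16, PGRP-LC (304 to 571 normalized reads in Ho16, 642 to 704 in WT16, 693 to 974 in He16) and PGRP-LF (27.6 to 61.6, 93.9 to 96.6 and 66.1 to 100) had lower values in Ho16 than in both other groups without overlap, and PGRP-LA did not (234 to 572, 428 to 438 and 397 to 463). The log2 difference of Ho16 from WT16 was -0.70 for PGRP-LC (95% interval -1.62 to 0.22, adjusted p = 0.80) and -0.94 for PGRP-LF (-2.01 to 0.14, adjusted p = 0.78), and that from He16 was -1.07 (-1.99 to -0.15, adjusted p = 0.71) and -0.74 (-1.81 to 0.33, adjusted p = 0.72). PGRP-LB was lower without overlap in Ho16 than in WT16 (difference -1.48, -3.53 to 0.57, adjusted p = 0.80), and PGRP-LE in Ho16 than in He16 (-0.90, -1.86 to 0.05, adjusted p = 0.71). Against each reference 3 members were lower without overlap, beside 10.8% of tested genes for WT16 and 10.3% for He16. UGP, whose exons overlap PGRP-LF, had 373 to 667 normalized reads in Ho16, 726 to 793 in WT16 and 511 to 559 in He16. Its part in the PGRP-LF differences was not tested. Ho16a and Ho16b were the shallowest libraries of the series, and Ho16c the one with most genes at 0.

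At stage 17, PGRP-LB had 464 to 1241 normalized reads in Ho17, 379 to 424 in WT17 and 342 to 444 in He17, the Ho values lying above the others without overlap. The differences, 0.93 (-1.12 to 2.98, adjusted p = 0.92) and 0.98 (-1.07 to 3.03, adjusted p = 1), did not pass, and both turned to the opposite sign (-0.53 and -0.48) with the experiment letter as a block. That block joins Ho to WT and He through the c libraries alone, since a and b occur only in Ho and ab only in WT and He. It also averages each letter over both stages, including Ho16c with 0 reads. Among the c libraries of stage 17, 1 for each genotype, Ho17c had 464 normalized reads, WT17c 379 and He17c 342. The cause of the sign change was not tested. PGRP-LF was also above He17 without overlap (0.82, -0.25 to 1.89, adjusted p = 1) but not above WT17. These were 1 member against WT17, where 13.4% of tested genes were higher without overlap, and 2 against He17, where 12.4% were. PGRP-LA and PGRP-LC overlapped between Ho17 and both other groups.

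The third comparison asked whether the stage change differed between Ho and WT. The interaction term passed 0.05 for 0 of the 9 members, adjusted or unadjusted. At an unadjusted p under 0.05, 2.37% of all tested genes were higher and 1.81% lower, and 0% were called at 0.001. It was 2.41 for PGRP-LB (95% interval -0.49 to 5.31, adjusted p = 0.98), 1.10 for PGRP-LE (-0.25 to 2.46), 1.01 for PGRP-LF (-0.51 to 2.53) and 0.45 for PGRP-LC (-0.85 to 1.75), so a larger stage change in Ho than in WT was not shown for any of them. Against He, a contrast added after the data had been seen, it was 2.13 (-0.77 to 5.02), 1.25 (-0.10 to 2.61), 1.56 (0.04 to 3.08) and 1.24 (-0.06 to 2.54) in the same order. Each of these had an adjusted p of 0.88.

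Other genes of these pathways are read against the same shares of all tested genes, 12.1% called higher and 23.0% higher at 0.05 with the genotypes averaged. Of 15 Imd pathway genes, only Rel, which encodes Relish, was called in that contrast, higher by 2.08 ± 0.22 (adjusted p = 9.9e-06), and in Ho, by 2.35 ± 0.33 (adjusted p = 2.2e-04). In WT and He it was higher by 2.52 ± 0.41 (adjusted p = 0.0011) and 1.36 ± 0.41 (adjusted p = 0.049). At 0.05 the averaged contrast had 3 Imd genes higher (Rel, Tab2 and Tak1) and 2 lower (imd and trbd), with a median of -0.29 over the list and 0.01 over all tested genes. Of 15 Toll pathway genes, nec, a serpin that restrains Toll activation, was called higher (2.03 ± 0.26, adjusted p = 4.8e-05) and 5 passed 0.05, all higher, with a median of 0.76. The counts called in both lists, 1 of 15, were below the share of all genes. Of 14 antimicrobial peptide genes only 7 could be tested, and Drs, which encodes Drosomycin, was called higher (3.69 ± 0.62, adjusted p = 4.5e-04) while the other 6 did not pass 0.05. None of these 3 lists had a called gene in any comparison between genotypes, also at 0.05.

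Markers of the gut moved with the stage as well. The 6 genes of the midgut list, 5 digestive proteases and the mucin-related Mur18B, were all higher at an adjusted p under 0.05 with the genotypes averaged, and 4 were called. Their summed level was 5.82 to 31.3 normalized reads in WT16, 31.0 to 77.6 in He16 and 76.0 to 131 in Ho16, and 1987 to 2100 in WT17, 1383 to 2371 in He17 and 2564 to 10549 in Ho17. The highest sum was in Ho17a, the library with most PGRP-SC2 reads. Of the 5 hemocyte markers, Hml was called higher (4.74 ± 0.42), and of the 3 fat body markers none was called. At 0.05, where 23.0% of all genes were higher and 12.5% lower, 4 of 4 muscle, 3 of 4 neuron and 2 of 5 hemocyte markers were higher, 1 of 3 fat body markers was lower, and none of 3 tracheal and 2 tested Malpighian tubule markers passed. The part of these tissues in the PGRP values was not tested.

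By the rule set for the most abundant members, the 3 genes whose deposited values were most like those of PGRP-LE across the 14 libraries, among 11583 others, were Hip1 (r = 0.95), mfrn (r = 0.94) and SMC6 (r = 0.94). For PGRP-LC they were CG32801 (r = 0.87), CG43980 (listed as CG33292, r = 0.86) and CG14657 (r = 0.85). The libraries also differ in stage, genotype and depth, whose part in these correlations was not tested.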

How the data were processed

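mRNA from pools of 50 embryos was sequenced as unstranded poly-A libraries. Per the labels and the study's methods, the authors mapped reads with Bowtie (FlyBase r5.22), summed them per gene and normalized the sums with DESeq. The deposited table holds log2-like values after variance stabilization, although its header calls them counts; the value of 0 reads is -0.04. The members and gene lists were chosen with earlier results of these data known.

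Whole reads were recovered from the steps that the deposited log2 values of each library make along a common curve: 99.7% of 158533 values above 0 reads lay within 0.05 of a whole read, and none under 14308 reads lay outside. Normalized reads are these reads divided by median-ratio size factors. The recovery and the fit were tested on simulated data. Exon lengths and neighbours came from the Release 6 annotation and carry no coordinates here, since its build differs from the authors'.

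limma 3.58.1 in R 4.3.3 was fitted to the deposited values of all 14 libraries with 6 conditions and a trended prior, on 11584 genes with at least 10 reads (scaled to the median library total) in 2 or more libraries and 15 reads in all. P-values were adjusted by Benjamini-Hochberg over all tested genes. Libraries are separate pools of embryos, and p-values measure the spread between them. Intervals are 95% intervals of the limma fit and measure the spread between libraries; floors on reads cover counting error only. All 10 members are named; for the other lists at most 4 called genes are.

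Alternatives were no filter, only the libraries compared, the experiment letter as a block, a 0.05 threshold, log2 of normalized reads plus 1 or 0.1, voom on the recovered reads, thinning to the shallowest library, and each library left out. Sequences were not used here.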

Additional observations from a re-analysis of the deposited data

Results flagged for a closer look

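The difference between Ho and WT had opposite signs at the 2 stages for PGRP-LB: every Ho16 library was below both WT16 libraries and every Ho17 library above both WT17 libraries. PGRP-LB was picked from these values by this pattern. Of all tested genes, 10.8% were lower in Ho16 and 13.4% higher in Ho17 than in WT without overlap. The share with both was not computed. The interaction on the deposited log2 scale was 2.41 ± 1.34 (SE; limma, adjusted p = 0.98), so the difference between the stages did not pass the test, and the stage 17 difference turned to -0.53 with the experiment letter as a block. The Ho16 group includes Ho16c, with 0 reads. This library also enters the block, which joins Ho to WT only through the c libraries.

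The same held for PGRP-LF between Ho and He, with every Ho16 library below both He16 libraries and every Ho17 library above both He17 libraries. This interaction was 1.56 ± 0.70 (limma, adjusted p = 0.88), and the exon overlap with UGP applies to it. PGRP-LF was picked in the same way. Against He without overlap, 10.3% of all tested genes were lower in Ho16 and 12.4% higher in Ho17, and the share with both was not computed.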

How the results depend on the processing

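The call of PGRP-LB from Ho16 to Ho17 depended on the fit. The number of members called was 1, and 0 with only the libraries compared, with pseudocounts of 1 or 0.1, and with voom, at adjusted p of 0.020, 0.0026, 0.015 and 0.0041 and log2 differences of 5.42, 5.80, 6.93 and 6.74. At 0.05 it was 3. Leaving out 1 library gave 0 to 1 members, and log2 differences of 4.17 to 6.05. From He16 to He17 this range was 0 to 1. For the genotype average the count of 1 became 4 at 0.05 and 0 with pseudocounts of 1 or 0.1 (adjusted p = 0.0011 and 0.013). Its direction was the same throughout, and the cause of these differences was not tested. In the 8 other comparisons no alternative moved the count of 0 members.

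Some small differences changed sign: PGRP-SD from He16 to He17 was 0.22 without He16ab and 0.42 without He17c (-2.12 to 0.42 over all libraries left out), PGRP-LC from Ho16 to Ho17 was -0.054 without Ho16c (-0.054 to 0.50), and PGRP-LB between WT17 and Ho17 and between He17 and Ho17 was -0.53 and -0.48 with the replicate block. The replicate block kept 1 member called from Ho16 to Ho17. Between Ho and the other genotypes it rests on the c libraries alone, Ho16c with 0 reads of PGRP-LB among them. The letters were not taken to pair the samples, since not every pair in Ho passed 0.1: the deviations of same-letter libraries correlated at 0.30 in WT and 0.32 in He, but at 0.02, 0.03 and 0.12 in Ho. Between genotypes, the c libraries of the same stage correlated at 0.02 to 0.34. Whether they share a batch was not tested. Library weights were not run to a result because they did not converge. Few reads limit PGRP-SA, PGRP-SC1a, PGRP-SC2 and PGRP-SB1. Low depth limits Ho16a and Ho16b, while Ho16c had 15273840 reads on genes but 4514 genes at 0 reads.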
